A study of Drosophila melanogaster with 24 samples.

Results

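The effect of hyperoxia selection on gene expression in adult flies was compared with its effect in larvae of the same populations. All 24 arrays of the series entered the comparison, 12 from adults and 12 from larvae. For each probe set the selection effect was the mean log2 signal of selected samples less that of control samples. The quantity tested was the adult effect less the larval effect, called here the stage difference. A positive stage difference means that selected flies stood higher over their controls as adults than as larvae. Of 18769 probe sets tested, 8245 were bright in both stages, that is, with a mean log2 signal at or above the median probe set in adults and in larvae. The description below is of these, and 275 of them had a stage difference at an adjusted p under 0.05.

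The study selected Drosophila melanogaster over generations for survival in high O2 and kept control populations in room air. RNA of whole animals was read on Affymetrix arrays that carry 1 or more probe sets for each transcript. Each of the 4 groups (control adults, selected adults, control larvae, selected larvae) held 6 arrays, 2 from each of 3 populations numbered C1 to C3 and H1 to H3. Each adult sample pooled 25 males and 25 females, and the larvae were in the third instar. Control and selected populations descended from 1 mixed stock of wild-type isogenic lines. Selected adults were cultured in high O2 and control adults in room air, so selection and the O2 level at collection cannot be told apart. No source used here gives the O2 level, the sex or the age within the third instar of the larvae.

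The third instar larva is a feeding and growing animal with an active midgut, a large fat body and small gonads, whereas the adult has ceased to grow and devotes much of its tissue to reproduction, flight and vision. In both stages the fat body stores lipid and secretes antimicrobial peptides after Toll and Imd signalling, and the midgut secretes proteases, carbohydrases and lipases. Whole-animal RNA mixes these tissues, and a smaller tissue cannot be told apart from less RNA per cell.

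The labels of stage held in the marker genes. The summed signal of the late salivary gland markers (Sgs3, Sgs4, Sgs5, Sgs7 and Sgs8, which encode glue proteins) was at least 350400 on each larval array and at most 935 on each adult array. This sum was 544500 to 672600 in control larvae and 350400 to 594400 in selected larvae, and none of the 5 genes passed in larvae. Glue genes also change with age within the last larval instar, and the part of larval age in the stage differences was not tested. The summed signal of 5 adult female markers (yolk proteins Yp1 to Yp3, Vm26Aa and Cp36) was at least 502000 in adults. It ran from 1982 to 14750 in control larvae and from 1906 to 5439 in selected larvae, so the larval arrays held a low level of adult female transcripts that reached higher in controls. The highest was the first larval array of C1. The adult male markers, of which 7 were measured, summed to between 30040 and 144000 in control adults, with the second array of C2 lowest, and to between 78510 and 149000 in selected adults. The adult muscle markers Act88F, TpnC4 and fln summed to 14580 to 34580 in control adults and to 1441 to 5402 in selected adults, without overlap. These 3 were dim in larvae, and none passed the stage difference test (adjusted p from 0.0948 to 0.258).

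Of the 275 bright probe sets called, 120 had a higher and 155 a lower effect in adults than in larvae. The share called was 3.34% of bright probe sets (1.46% higher, 1.88% lower), against 1.97% (369) of all 18769. In 10 of the 275 (3.64%) 1 group lay below the brightness limit of its stage, so that the probe set was bright through the other group, as in 3.76% of all bright probe sets. Among named genes these were DptB, CG6296, CG16762 and CG34460. The direction depended on the scaling, since the arrays of the 4 groups differed in their median signal. With quantile normalization of all arrays the split was 74 higher and 183 lower, with quantile normalization within each stage 103 and 207, and with each array centred on its median 13 and 237. The median stage difference of all probe sets moved from 0.16 to 0.01 and to -0.10 under quantile normalization and median centring.

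In most of these probe sets it was the larval effect that passed its own test. Both stages shared 1 estimate of the spread for each probe set, taken over all 4 groups. The test of a stage therefore does not measure the spread of that stage alone. Groups that do not overlap in 1 stage can fail it where the other stage is widely spread, as for CG7298 in larvae below. Larvae alone passed in 149 of the 275, with 81 rising and 68 falling. Adults alone passed in 50, with 14 rising and 36 falling, and neither stage passed in 69. For comparison, 8.72% of all bright probe sets passed in larvae (3.49% rose, 5.23% fell) and 2.32% in adults (0.643% rose, 1.67% fell). Among the 275, both stages passed with opposite signs in 6 and with the same sign in 1, the lipase gene CG6295. The estimates had opposite signs in 232 of the 275 (84.4%), while this held for 51.0% of all bright probe sets. Since a stage difference is the distance between these effects, called probe sets are bound to be rich in opposite signs.

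**Figure D1:**
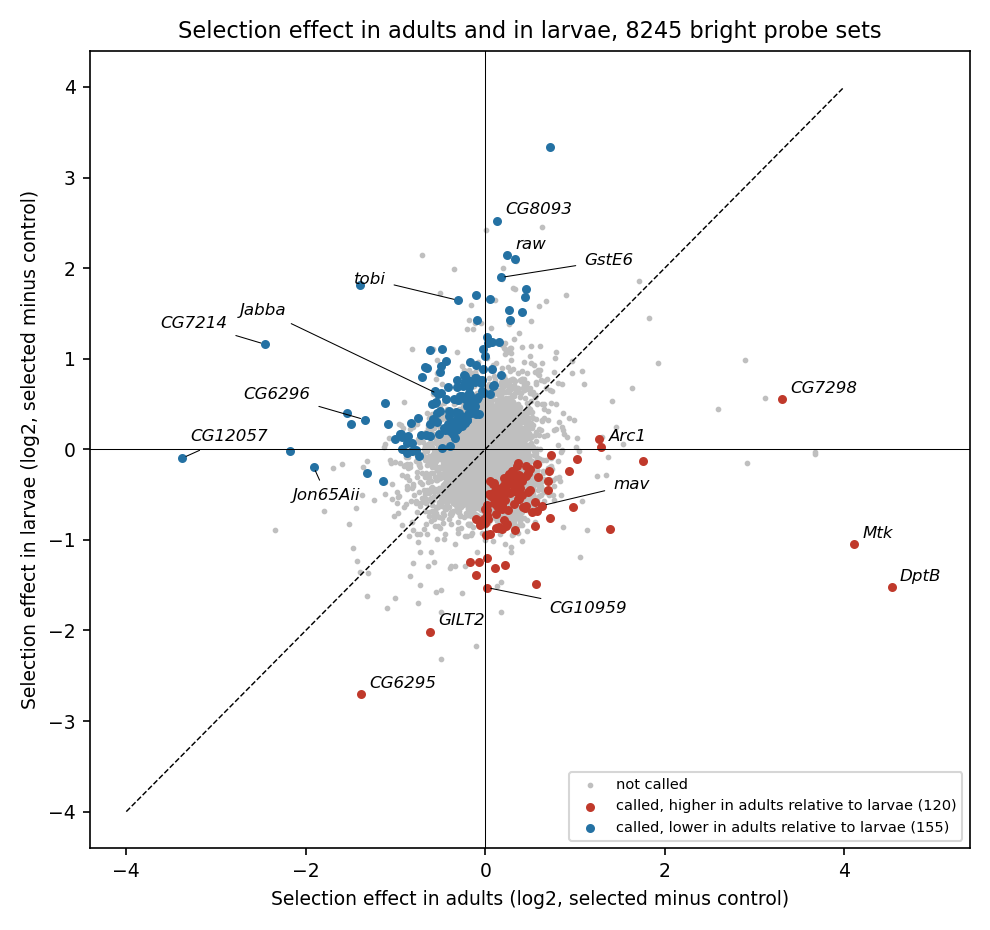
Selection effect in adults (x axis) and in larvae (y axis), both as log2 selected minus control, for 8245 probe sets bright in both stages. Red marks 120 and blue 155 probe sets whose effects differed between stages, the dashed line marks equal effects, and DptB and Mtk lie farthest to the right while CG8093 and raw lie near the top.

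The precision rests on 3 populations a group, and the arrays of 1 population need not be independent. With the population within a stage as a random block, 87 of the bright probe sets passed, and with 1 mean per population and stage none did (limma, 931 at an unadjusted p under 0.05). Of 56 named genes that were bright and called, 21 kept their call with that block. These were the genes below with opposite effects (Jabba, mav, MCTS1 and EbpIII) and DptB, raw, GstE6, GstT4, Cyp6d2, Cyp6a20, Jon25Bi, CG6296, Lip4, Lsd-1, ND-13B, CG7214, CG12057, CG10959, CG30440, Arc1 and betaTub97EF. Leaving out both stages of 1 population left 71 without C1, 123 without C2, 33 without C3, 69 without H1, 138 without H2 and 292 without H3. In all 6 of these fits 25 of the 275 passed, and in none of them 44. Without the first larval array of C1, an alternative chosen after the data were seen, 185 passed, and without the second adult array of C2 232 passed.

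Genes with opposite effects in the stages formed the sharpest contrast, and 4 of them had a name. Jabba encodes a protein of the lipid droplet surface that also holds histones there. Its signal ran from 30128 to 38451 in control adults (median 36079) and from 20696 to 27981 in selected adults (median 24298). In larvae it ran from 5904 to 8173 (median 6985) in controls and from 8271 to 14091 (median 10603) in selected animals. Neither stage had overlapping groups, with selected arrays below in adults and above in larvae. Jabba fell by 0.53 on the log2 scale in adults and rose by 0.61 in larvae, and the stage difference was -1.14 (SE 0.17, adjusted p = 0.00156, limma). A second probe set of Jabba gave -0.90 (adjusted p = 0.0291), although its adult effect alone did not pass.

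The gene maverick (mav) on chromosome 4, which encodes a ligand of the TGF-beta family, went the other way. Its signal was 2283 to 3329 in control adults (median 2703) and 3388 to 5561 in selected adults (median 4169). In control larvae it was 2475 to 3620 (median 3097) and in selected larvae 1711 to 2363 (median 1971). All selected adults were above and all selected larvae below their controls. mav rose by 0.63 in adults and fell by 0.62 in larvae, with a stage difference of 1.26 (SE 0.18, adjusted p = 0.00127).

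MCTS1 encodes a factor that helps ribosomes restart translation. Control adults had 732 to 929 (median 826) and selected adults 1110 to 1686 (median 1355), whereas control larvae had 1267 to 2089 (median 1591) and selected larvae 1091 to 1376 (median 1158). The adult groups did not overlap, and 5 of 6 selected larval arrays were below all controls. MCTS1 rose by 0.70 in adults and fell by 0.45 in larvae. The stage difference was 1.15 (SE 0.17, adjusted p = 0.00134), and with median centring its adjusted p was 0.0983. EbpIII, named for its product in the male ejaculatory bulb, had a stage difference of -0.92 (SE 0.16, adjusted p = 0.00554). It fell by 0.50 in adults, from a median of 61087 to 43003, and rose by 0.42 in larvae, from 8697 to 12044. EbpIII did not pass without C3 or without H1, where its highest adjusted p was 0.0553. Jabba, mav and MCTS1 passed without any 1 population, with adjusted p of at most 0.0272.

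The immune genes held the largest stage differences. DptB encodes diptericin B, an antimicrobial peptide made under the Imd pathway. Control adults had signals from 260 to 673 (median 511) and selected adults from 941 to 44732 (median 30197). Control larvae had 10265 to 32979 (median 19083) and selected larvae 2117 to 20623 (median 4905). Every selected adult array was above every control adult, but they fell in separate sets, with the second arrays of H1 and H2 at 1245 and 941 and the other 4 at 30030 or more. DptB rose by 4.53 in adults, the larval estimate was -1.52 (adjusted p = 0.383), and the stage difference was 6.05 (SE 1.20, adjusted p = 0.0113). It did not pass without C1 or without C3 (highest adjusted p 0.0826).

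Mtk, which encodes the antifungal peptide metchnikowin, was low on the same selected adult arrays as DptB. Its signal was 538 to 3659 (median 948) in control adults and 2083 to 63796 (median 43540) in selected adults, where the second arrays of H1 and H2 were at 5098 and 2083, the latter within the range of the controls. Larval signals were 5889 to 24562 (median 9248) in controls and 1885 to 17771 (median 4044) in selected animals, with overlap. Mtk rose by 4.11 in adults, the larval estimate was -1.05 (adjusted p = 0.556), and the stage difference was 5.16 (SE 1.12, adjusted p = 0.0210). It did not pass without C1, C2, C3, H1 or H3 (adjusted p up to 0.111), and did without H2. With the population within a stage as a random block its adjusted p was 0.0669.

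The other antimicrobial peptide genes did not pass. Of 13 measured members of the list, DptB and Mtk were called, beside 1.97% of all probe sets tested. The median stage difference of the 13 was 1.06. DptB counted as bright in adults through the selected flies, with a mean log2 signal of 8.88 in control adults against a limit of 9.14, so the bright members alone are not summarised. Drsl2, Drs and Def were named after their values were seen. CecB had a stage difference of 2.03 (SE 0.57, adjusted p = 0.0608) and Drsl2 of 2.55 (SE 0.86, adjusted p = 0.126). Drs, the gene of drosomycin, a target of Toll, had 0.13 (adjusted p = 0.945), and Def had -0.80 (adjusted p = 0.653). AttD was dim in adults, and its stage difference was 2.52 (SE 0.89, adjusted p = 0.144). Other genes listed for their bearing on the study's experiments in flies did not pass either. They were Gpdh1 (-0.48, adjusted p = 0.0954 at its brightest probe set), Tmem214 (-0.41, adjusted p = 0.286) and the dim UGP (-1.67, adjusted p = 0.0557). UGP passed under quantile normalization (adjusted p = 0.0380) and under median centring (0.0423). None of the 4 probe sets of Gpdh1 was called, with stage differences from -0.66 to 0.12. The one at -0.66 (adjusted p = 0.126) fell by 1.04 in adults (adjusted p = 0.00215). Its stage difference passed under quantile normalization (0.0439) and median centring (0.0394).

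The median stage difference of regulators of the immune pathways lay close to that of all bright named genes. It was 0.10 over 27 bright genes of the Imd and Toll list, beside 0.09 over all. Among the 27, SPE alone was called, lower, beside 1.79% lower and 1.33% higher over all bright named genes. SPE encodes the protease that activates Spaetzle, the ligand of Toll. Its signal was 1097 to 1325 (median 1262) in control larvae and 1673 to 2764 (median 2065) in selected larvae, without overlap. SPE rose by 0.79 in larvae, its adult estimate was -0.12 (adjusted p = 0.794), and the stage difference was -0.91 (SE 0.20, adjusted p = 0.0222), which did not pass without C1 or C3 (up to 0.118). GILT2, a gene of the thiol reductase family, had groups that did not overlap in either stage, with medians of 7937 and 5281 in control and selected adults and of 6297 and 2122 in larvae. It fell by 2.01 in larvae, and the adult estimate was -0.62 (adjusted p = 0.291). Its stage difference of 1.40 (adjusted p = 0.0452) did not pass with quantile normalization (0.133) or median centring (0.171), nor without any population but H3 (up to 0.172).

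**Figure D2:**
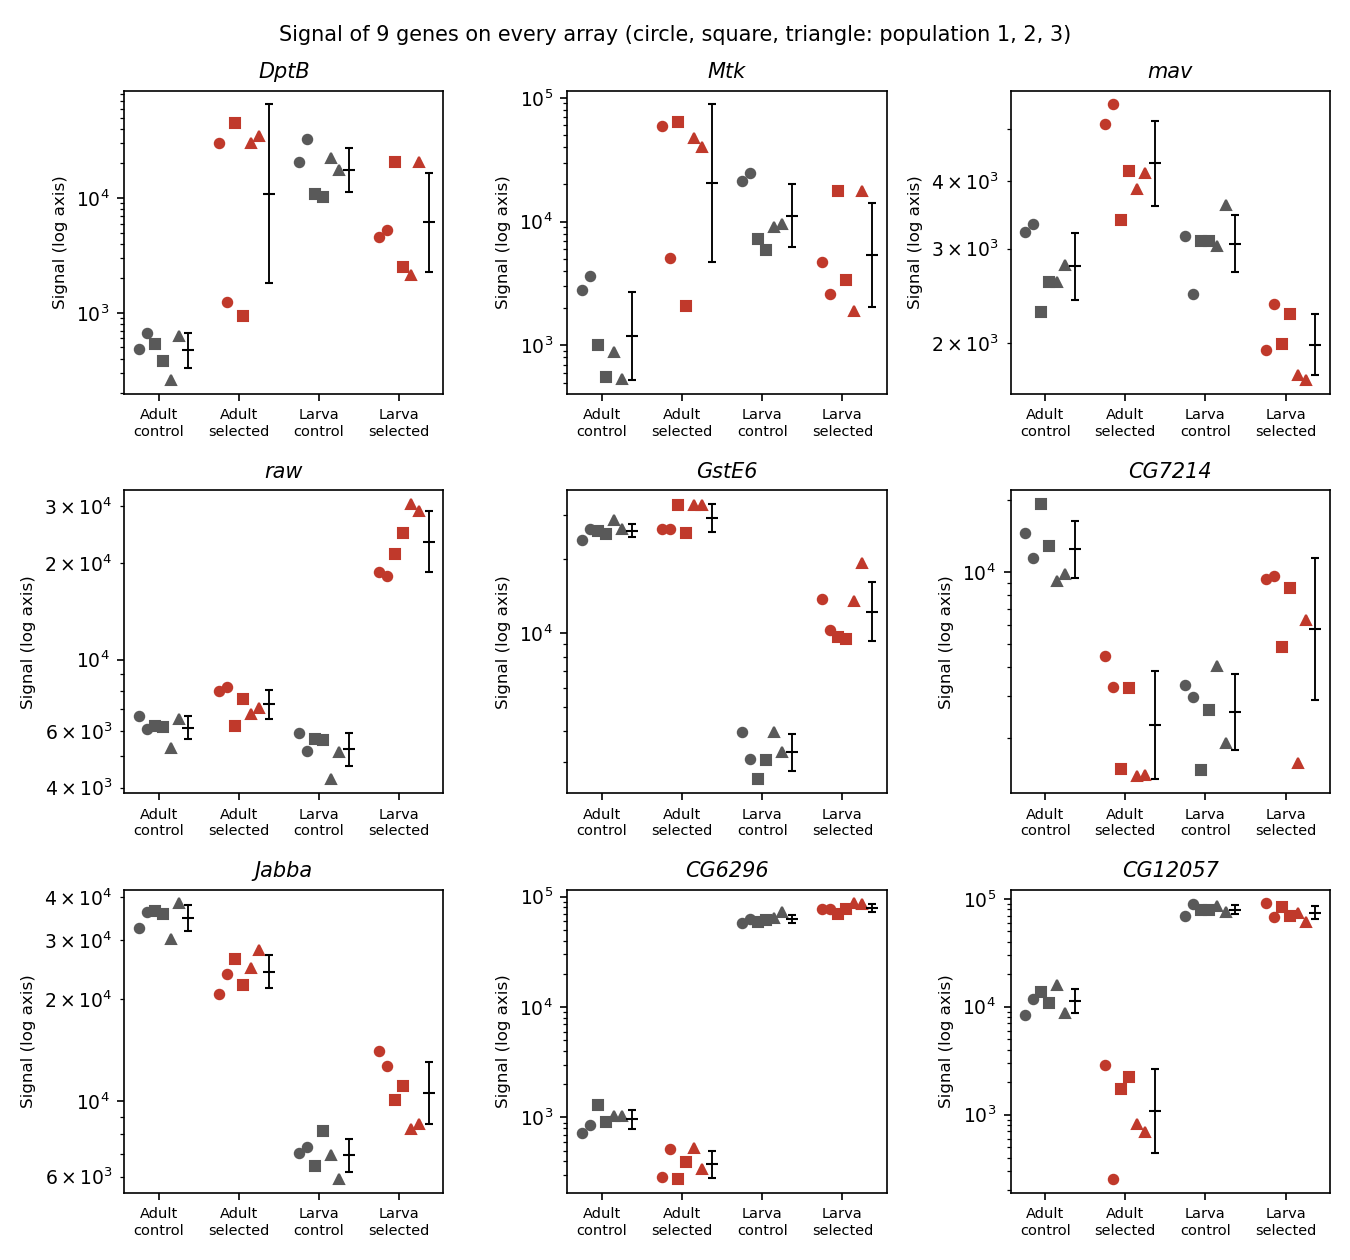
Signal on a log axis of 9 genes on each array, by group (control in grey, selected in red) and by population (circle, square and triangle for populations 1, 2 and 3). The dash and bar beside each group give the mean and SD of its 6 log2 signals. The selected larvae of raw and GstE6 stand clear of their controls, while the selected adults overlap theirs in part.

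The gene raw had the smallest p-value of the comparison. It encodes a protein known as a negative regulator of Jun kinase (JNK) signalling in the embryo. Control larvae had signals of 4238 to 5920 (median 5404) and selected larvae of 18149 to 30540 (median 23042), above every array of the other groups. Control adults had 5293 to 6686 (median 6196) and selected adults 6196 to 8216 (median 7312), with 5 of 6 selected arrays above all controls. raw rose by 2.15 in larvae, its adult estimate was 0.24 (adjusted p = 0.439), and the stage difference was -1.90 (SE 0.17, adjusted p = 5.7e-06). It passed in all 6 leave-one-out fits (highest adjusted p 0.000764) and was the 1 probe set that met a fold over 1.5 with a Bonferroni adjusted p under 1e-04.

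Other JNK genes were looked at after the value of raw was seen. puc, which encodes a phosphatase that is induced by and limits JNK signalling, rose by 0.65 in larvae, from a median of 5852 to 8977 with no overlap, and had a stage difference of -0.68 (adjusted p = 0.0484). Jra, the gene of the fly Jun protein, had a stage difference of -0.59 (adjusted p = 0.0296), and neither stage passed alone. The kinase genes bsk and hep and the Fos gene kay did not pass at their brightest probe sets (stage differences of -0.01, 0.11 and -0.24). puc lost its call in each leave-one-out fit and Jra in 4 of 6.

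The gene Sarm, which encodes an enzyme that breaks down NAD and carries a TIR domain, was also singled out after its values were seen. Of its 9 probe sets, 4 were called, with stage differences of -1.11 to -1.25, and each rose in larvae by 1.18 to 1.69. At the brightest, control larvae had 7377 to 11759 (median 8737) and selected larvae 19520 to 35916 (median 23475), and the adult medians were 3877 and 5318. The other 5, of which 4 were dim, did not pass. Among these the bright probe set had 0.68 (adjusted p = 0.397) and a larval estimate of -0.74 (adjusted p = 0.180), opposite in sign to those called. The dim ones had stage differences of -0.45 to 1.11. Of the 4 called, the one with the smallest adjusted p (0.00282) passed in 5 of 6 leave-one-out fits, another in 4, the brightest in 3 and the last in 0 (adjusted p up to 0.149). The brightest did not pass under quantile normalization (0.0580).

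The named genes of detoxification fell on both sides, with GstE6 the clearest. GstE6 encodes a glutathione S-transferase, an enzyme that couples glutathione to reactive compounds. Its signal was 2541 to 3963 (median 3180) in control larvae and 9450 to 19184 (median 11872) in selected larvae, without overlap. Adult signals were higher and overlapped, at 23688 to 28688 (median 26115) in controls and 25460 to 33093 (median 29596) in selected flies. GstE6 rose by 1.90 in larvae, the adult estimate was 0.17 (adjusted p = 0.702), and the stage difference was -1.73 (SE 0.21, adjusted p = 0.000230). It passed in all 6 leave-one-out fits.

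Of 24 bright glutathione S-transferase genes, 3 were called lower (GstE6, GstE9 and GstT4), none higher, and the median was -0.25, where 1.33% of bright named genes were called higher and 1.79% lower. GstE9 rose by 0.85 in larvae and GstT4 fell by 0.94 in adults, with stage differences of -1.36 (adjusted p = 0.0303) and -1.11 (adjusted p = 0.0110). GstE9 missed the threshold under quantile normalization (adjusted p = 0.0503) and without C1, C2, C3 or H1 (up to 0.164), and GstT4 without C1, C3 or H1 (up to 0.0979). Of 51 bright cytochrome P450 genes 1 was called higher and 3 lower, beside 1.33% and 1.79% of all bright named genes. Cyp6d2 rose by 1.39 in adults, from a median of 869 to 2941, with the second array of H2 (636) below all controls, and had a stage difference of 2.27 (SE 0.45, adjusted p = 0.0115). Cyp6a20 rose by 1.43 in larvae, from a median of 710 to 1925 without overlap, with a stage difference of -1.15 (SE 0.24, adjusted p = 0.0152). Cyp6a9 and Cyp6a22 had -0.85 and -0.83 (adjusted p = 0.0452 and 0.0194). Without C1, C3 or H1 neither Cyp6d2 (adjusted p up to 0.102) nor Cyp6a20 (up to 0.131) passed, and Cyp6a20 did not without H2 either. Cyp6a9 lost its call in all 6 leave-one-out fits (up to 0.154) and Cyp6a22 without C2, C3, H1 or H2 (up to 0.103). Among 15 bright UDP-glycosyltransferases, Ugt302C1 alone was called (beside 1.79% lower over all), rose by 0.73 in larvae and had -0.78 (adjusted p = 0.0303), which passed in 1 of the 6 (without C3). None of 17 bright antioxidant enzymes was called, beside 1.33% higher and 1.79% lower over all bright named genes. A list of 17 is too short to tell none from that share. Their median was 0.10, beside 0.09 over all bright named genes.

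Of the digestive enzymes the serine proteases had mostly negative estimates. Of 24 bright gut serine protease genes 2 were called lower and none higher, beside 1.79% and 1.33% of bright named genes. Of the 24 estimates 23 were below 0 and the median was -0.46, where 60.4% of bright named genes were above 0. Jon65Aii, of the Jonah family of midgut proteases, had signals of 18786 to 23772 (median 21537) in control adults and 1938 to 11286 (median 7628) in selected adults. In larvae the signals were near the top of the range, with medians of 123947 and 110821. Jon65Aii fell by 1.91 in adults and its stage difference was -1.72 (SE 0.42, adjusted p = 0.0357). Jon25Bi had -0.94 (SE 0.20, adjusted p = 0.0181), with an adult estimate of -0.54 (adjusted p = 0.0658) and a larval one of 0.40 (adjusted p = 0.124). Jon65Aii lost its call without C1, C2, C3 or H2 (adjusted p up to 0.133) and Jon25Bi without C2, C3 or H1 (up to 0.115). The direction of the list held with quantile normalization (23 of 24) and median centring (24 of 24).

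For carbohydrases the larval effect was the larger. Among 15 bright genes of gut carbohydrases and lysozymes 2 were called lower and none higher, beside 1.79% and 1.33% of bright named genes. The median effect of the 15 was 0.63 in larvae and -0.01 in adults. tobi encodes an alpha-glucosidase that responds to insulin-producing cells. Its signal rose in larvae by 1.64, from 854 to 1498 (median 989) in controls to 2108 to 5923 (median 2965) in selected animals, and the adult groups overlapped. The stage difference of tobi was -1.95 (SE 0.42, adjusted p = 0.0211). The maltase gene Mal-A3 had -1.20 (adjusted p = 0.0350), which passed in 1 leave-one-out fit (without C2). tobi did not pass without C1, C2, C3 or H1 (up to 0.125). Mal-A1, named after its values were seen, rose by 2.00 in larvae with a stage difference of -1.81 that missed the threshold (adjusted p = 0.0611).

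Lipase genes differed among themselves. CG6296 and CG6295 encode related lipases of the pancreatic type. CG6296 fell by 1.35 in adults, from signals of 729 to 1287 (median 977) to 278 to 528 (median 368), without overlap. It was bright in adults through the controls alone (mean log2 signal 8.57 in selected adults) and lay just inside the limit, by 0.10. In larvae its signals were 57662 to 71965 (median 62185) in controls and 69477 to 86915 (median 77750) in selected animals (estimate 0.33, adjusted p = 0.267). The stage difference was -1.67 (SE 0.21, adjusted p = 0.000348), and it passed in all 6 leave-one-out fits. CG6295 fell by 1.39 in adults (medians 43324 and 17280) and fell by 2.70 in larvae (medians 41573 and 5802), and neither stage had overlapping groups. Its stage difference was 1.32 (SE 0.34, adjusted p = 0.0483). That difference did not pass under quantile normalization (0.179) or median centring (0.186), nor without any population but H3 (up to 0.175).

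CG8093, of the acid lipase family, rose by 2.52 in larvae, from a median of 2356 to 10335, with H3 arrays at 29594 and 39067 and the other 4 selected arrays at 5911 to 10874. Its adult medians were 2366 and 2362, and the stage difference was -2.39 (SE 0.56, adjusted p = 0.0309). Lip4 had -1.09 (SE 0.21, adjusted p = 0.0108), with neither stage past its own test. CG8093 did not pass without C1, C2, C3 or H2 (up to 0.150), nor Lip4 without C1, C3 or H1 (up to 0.0822). The list named neutral lipases thus also held an acid lipase gene, CG8093, and is not a list of neutral lipases alone. Of its 9 bright genes 1 was called higher and 3 lower, beside 1.33% and 1.79% of bright named genes.

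Lsd-1 encodes a perilipin that coats lipid droplets and controls the access of lipases. It fell by 1.14 in adults, from signals of 8206 to 12937 (median 10642) to 4119 to 5410 (median 4806). In larvae its medians were 36221 and 28734, with 5 of 6 selected arrays below all controls. The larval estimate was -0.35 (adjusted p = 0.0731), and the stage difference was -0.79 (SE 0.15, adjusted p = 0.00881). Of 23 bright genes of lipid storage and synthesis 3 were called lower (beside 1.79% of bright named genes), none higher, 13 estimates were below 0 and 10 above, and the median was -0.08. The others were ACC, the enzyme that makes malonyl-CoA, with -0.68 (adjusted p = 0.0463), and the elongase gene CG31523 with -0.53 (adjusted p = 0.0249). Both lost their call without C1, C3, H1 or H2 (up to 0.284 and 0.122), ACC also under quantile normalization (0.0645), and Lsd-1 without C3 or H1 (up to 0.0711). The second perilipin gene Lsd-2 (-0.08, adjusted p = 0.831) and the lipase gene bmm (0.11, adjusted p = 0.808), named after their values were seen, did not pass. The fat body storage gene Lsp2 fell by 0.51 in adults (adjusted p = 0.0418), from a median of 44921 to 33111, with a larval estimate of -0.03 and a stage difference of -0.47 (adjusted p = 0.147), and its part in the adult falls of Lsd-1 and Jabba was not tested.

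Lipid genes outside that list were noticed after their values were seen. Ldsdh1, a dehydrogenase of lipid droplets, rose by 0.77 in larvae, from 18518 to 24261 (median 23025) to 31062 to 42018 (median 36780), and had a stage difference of -1.08 (adjusted p = 0.00127). AkhR, the receptor of the adipokinetic hormone that mobilizes fat, had adult medians of 1571 and 932 without overlap and larval medians of 5540 and 5840. Its stage difference was -0.94 (adjusted p = 0.0195). Fitm, which partitions fat into droplets, gave -0.60 and -1.10 at its probe sets (adjusted p = 0.0230 and 0.00725). Ldsdh1 passed in all 6 leave-one-out fits, AkhR in 3 and Fitm in 3 at each probe set (adjusted p up to 0.163 and 0.0660).

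Genes of chitin and amino sugar metabolism, likewise singled out from their values, changed in larvae in both directions. Chs2 encodes the chitin synthase of the midgut. Its signal rose by 1.66 in larvae, from 643 to 1122 (median 968) to 2236 to 3904 (median 2631), and the adult medians were 669 and 647. The stage difference of Chs2 was -1.61 (SE 0.26, adjusted p = 0.00239). Gfat1, the first enzyme of the hexosamine pathway that feeds chitin synthesis, fell by 0.86 in larvae, from a median of 18327 to 10129 without overlap, and had 1.02 (adjusted p = 0.00554). Nagk, an N-acetylglucosamine kinase, rose by 0.68 in larvae and had -0.99 (adjusted p = 0.00277). The UDP-glucose dehydrogenase gene sgl rose by 0.77 and had -0.80 (adjusted p = 0.0162). The cuticular chitin synthase gene kkv was dim, and mmy, whose product makes UDP-N-acetylglucosamine, had -0.10 (adjusted p = 0.761). Chs2 and Nagk passed in all 6 leave-one-out fits, Gfat1 in 5 and sgl in 2.

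Other large stage differences belonged to genes of few known functions. CG7214 had signals of 9132 to 19372 (median 12153) in control adults and of 1388 to 4425 (median 2364) in selected adults. In larvae it had 1472 to 4034 (median 2803) in controls and 1575 to 9655 (median 7417) in selected animals, where 5 of 6 arrays were above all controls. It fell by 2.46 in adults, the larval estimate was 1.16 (adjusted p = 0.103), and the stage difference was -3.62 (SE 0.54, adjusted p = 0.00134). CG12057 fell by 3.38 in adults, from a median of 11303 to 1273, and had larval medians of 78876 and 72335 with a stage difference of -3.28 (SE 0.54, adjusted p = 0.00315). CG10959 fell by 1.53 in larvae, from 1678 to 2417 (median 2029) to 515 to 888 (median 721), with adult medians of 3070 and 2877, and had 1.54 (SE 0.20, adjusted p = 0.000423). Arc1 encodes a protein that forms virus-like capsids and carries RNA between cells. It rose by 1.29 in adults, from a median of 16245 to 45073 without overlap, with larval medians of 102033 and 101903 and a stage difference of 1.26 (SE 0.20, adjusted p = 0.00239). A second bright probe set of Arc1 gave 0.86 (adjusted p = 0.0972). At the probe sets given these 4 genes passed in all 6 leave-one-out fits.

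The remaining genes among the 12 largest of each direction did not keep their call in every leave-one-out fit. CG7298 rose by 3.31 in adults and Mur29B, a mucin-related gene, by 1.76. Their stage differences were 2.75 (adjusted p = 0.0336) and 1.89 (adjusted p = 0.0347), and that of CG7298 did not pass with quantile normalization (0.0665) or median centring (0.0560). Selected adults fell in separate sets for CG7298, with both arrays of H1 and the second of H2 at 2150 to 5045 and the others at 19166 or more. The lowest lay within the range of the control adults (516 to 2202). Larval signals of CG7298 were 83898 to 96278 in controls and 117332 to 149526 in selected animals, without overlap (estimate 0.56, adjusted p = 0.602). CG30440 (1.41) and Srg1 (1.26) were the others on the higher side, and with median centring neither passed (0.0556 and 0.213). On the lower side CG16762 fell by 1.54 in adults, with a stage difference of -1.95. It was bright in adults through the controls (mean log2 signal 8.86 in selected adults), and CG34460 was bright in larvae through the selected animals (8.27 in controls). CG13947, CG34460 and smp-30 rose in larvae by 1.70, 2.10 and 1.10, with -1.81, -1.77 and -1.71 (adjusted p from 0.0193 to 0.0353). Each of these 8 lost its call without C3, with the highest adjusted p over the leave-one-out fits between 0.107 and 0.206. Larval signals of Arc1, CG12057, CG7298, CG6296 and Jon65Aii were at least 57662 on each larval array, where the highest signal of any probe set was 199981, and whether such signals still change in proportion was not tested.

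Mitochondrial genes had mostly small negative estimates, and few passed. Of 65 bright genes of the respiratory chain and ATP synthase, 53 had an estimate below 0, 4 were called lower (beside 1.79% of bright named genes) and none higher. Their median effect was -0.15 in adults and 0.14 in larvae, and the median stage difference was -0.31, beside 0.09 over all bright named genes. All 4 called genes encode subunits of complex I, the NADH dehydrogenase. The ATP synthase gene ATPsyndelta, named after its values were seen, lay just outside the threshold at -0.52 (SE 0.14, adjusted p = 0.0541). ND-13B had adult signals of 10860 to 11900 (median 11109) in controls and 7705 to 10287 (median 8829) in selected flies, and larval medians of 9542 and 11391. Its stage difference was -0.64 (SE 0.14, adjusted p = 0.0182), and ND-20, ND-B17.2 and ND-B18 had -0.70, -0.66 and -0.53 (adjusted p from 0.0334 to 0.0407). None of the 4 passed without C1, C2, C3 or H1 (adjusted p up to 0.218). The direction held with quantile normalization (52 of 65 below 0) and median centring (55 of 65), while the calls fell to 1 under the former. None of 16 bright genes of the tricarboxylic acid cycle was called, and 15 had an estimate below 0 (median -0.29). Of 71 bright mitochondrial ribosomal protein genes 1 was called, mRpL1 (-0.51, adjusted p = 0.0303), or 1 in 71 beside 1.79% lower over all bright named genes. mRpL1 passed in 1 leave-one-out fit (without H3) and not under median centring (0.0845).

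Genes of growth had mostly positive estimates. Of 26 bright genes of DNA replication and the cell cycle, all 26 had an estimate above 0 and 3 were called higher. Over all bright named genes 60.4% were above 0 and 1.33% were called higher. The median effect of the 26 was -0.36 in larvae and 0.07 in adults, with a median stage difference of 0.46. CycB, the gene of cyclin B, fell by 0.56 in larvae, from 3079 to 5356 (median 4156) to 2633 to 3036 (median 2750), and had 0.67 (SE 0.15, adjusted p = 0.0212). dUTPase fell by 0.60 in larvae and dpa, which encodes the helicase subunit Mcm4, had a larval estimate of -0.46 (adjusted p = 0.0570), with stage differences of 0.69 and 0.78. With quantile normalization 23 of 26 were above 0 (51.2% over all bright named genes). With median centring 19 of 26 were above 0 (29.9% over all) and none was called. None of the 3 passed without C2, C3, H1 or H2 (adjusted p up to 0.236).

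Of 27 bright genes of ribosome biogenesis 24 had an estimate above 0 (60.4% over all bright named genes), with a median of 0.29. Beside 1.33% of all bright named genes, 4 of the 27 were called higher. These were Polr1A and Polr1B, subunits of RNA polymerase I, with 0.80 and 0.63, Nop56, a protein of the nucleolus, with 0.62, and Ns1, a nucleostemin, with 0.40 (adjusted p from 0.0253 to 0.0484). Nop56 fell by 0.48 and Ns1 by 0.35 in larvae. With median centring 14 of 27 were above 0 (29.9% over all bright named genes) and none was called, and with quantile normalization 1 was. The lysyl-tRNA synthetase gene LysRS had 0.55 (adjusted p = 0.0409) and the ecdysone receptor gene EcR 1.08 (adjusted p = 0.0427), and neither passed under either of these scalings. None of these 6 genes passed without C1, C3, H1 or H2 (adjusted p up to 0.240). Among importin genes, named after their values were seen, Tnpo rose by 0.94 in adults with a stage difference of 1.18, and Pen fell by 0.62 in larvae with 0.76 (adjusted p = 0.0291 and 0.0224). Tnpo passed in 2 leave-one-out fits and Pen in 1, and with median centring neither did (adjusted p = 0.140 and 0.197).

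Genes of the gonad lists also had mostly positive estimates, though all but 1 of these listed genes did not pass. All 19 bright genes of testis and sperm had an estimate above 0 (median 0.91) and so did 8 of 9 of yolk, eggshell and female germline (median 1.01). Over all bright named genes 60.4% were above 0 and 1.33% were called higher. Of the testis and sperm genes none was called. Of the yolk, eggshell and female germline genes 1 was, Vm26Aa, a vitelline membrane gene. Vm26Aa had 916 to 2112 (median 1435) in control larvae and 855 to 1075 (median 1009) in selected larvae, against at least 98018 in adults, and a stage difference of 0.71 (SE 0.19, adjusted p = 0.0494) that passed in 1 leave-one-out fit (without C2) and under neither quantile normalization (0.223) nor median centring (0.378). Yp1 was at 270 to 2971 in control larvae and 319 to 505 in selected larvae. The germline genes ovo and nod, outside these lists and named after their values were seen, fell in larvae by 0.78 and 0.77. Both were called, with stage differences of 0.99 and 0.76 (adjusted p = 0.0310 and 0.0336). They passed in 3 and 2 leave-one-out fits. Neither passed under quantile normalization (0.0502 and 0.153) or median centring (0.276 and 0.453). The part of germline genes, and that of adult female transcripts on larval arrays, in the stage differences of CycB, dUTPase, dpa and the ribosome biogenesis genes was not tested.

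**Figure D3:**
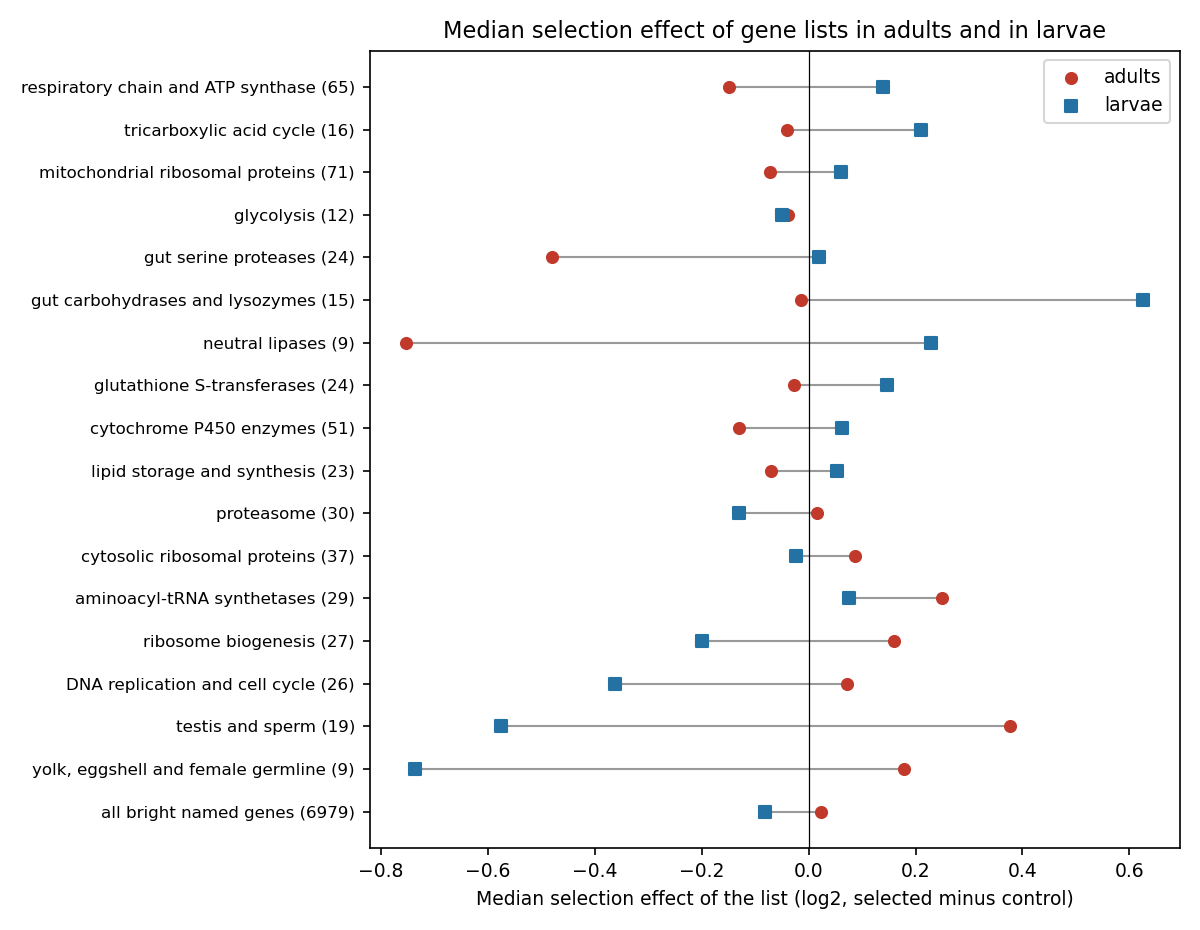
Median selection effect (log2, selected minus control) of gene lists and of all 6979 bright named genes, in adults (red circles) and larvae (blue squares), with the number of bright genes in parentheses. The respiratory chain lies at -0.15 in adults and 0.14 in larvae, while DNA replication and cell cycle genes lie at 0.07 and -0.36.

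Genes of chromosome 4, the small chromosome of the fly that is mostly heterochromatin, stood out after the values were seen and are described without a test. Of 41 bright named genes there, 36 had a stage difference above 0, with a median of 0.38, whereas on the other chromosomes together 60.2% of 6922 were above 0 and the median was 0.08. On the X and the arms of chromosomes 2 and 3 the medians were between 0.05 and 0.10. The shift lay in larvae, where 38 of 41 had an effect below 0 and the median effect was -0.36, beside -0.08 on the other chromosomes. In adults the median was 0.07 and 26 of 41 were above 0.

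Of the 41, 7 were called higher (17.1%, beside 1.23% on the other chromosomes) and none lower. After mav the largest were CG31999 (0.91, adjusted p = 0.0296) and CG31997 (0.85, adjusted p = 0.0133), followed by Cals, which encodes calsyntenin (0.73, adjusted p = 0.0409), and ci, the transcription factor of the Hedgehog pathway (0.71, adjusted p = 0.0463). Zyx, the gene of zyxin, rose by 0.35 in adults and had 0.53 (adjusted p = 0.0206). The translational repressor gene 4E-T fell by 0.37 in larvae and had 0.47 (adjusted p = 0.0408). Against the trend Rnf11 had -2.23 (adjusted p = 0.0796) and rose by 1.73 in larvae. The median of chromosome 4 stayed above that of the other chromosomes with quantile normalization (0.31 and 0.01, 33 of 41 above 0) and with median centring (0.11 and -0.18, 28 of 41), and 4 and 1 of the 41 were then called higher.

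**Figure D4:**
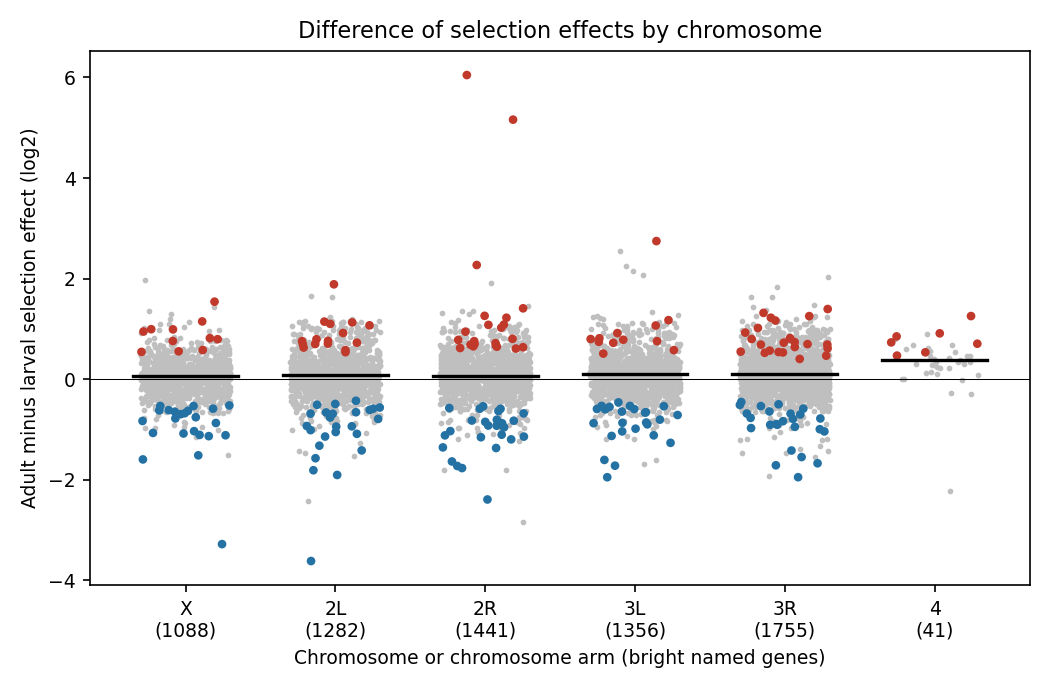
Stage difference (adult minus larval selection effect, log2) of bright named genes by chromosome or chromosome arm, with called genes in red (higher) or blue (lower) and the number of genes in parentheses. Black lines mark the medians, which lie between 0.05 and 0.10 except on chromosome 4, at 0.38.

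Dim probe sets held 94 further calls, 70 higher and 24 lower (0.665% and 0.228%), or 0.893% of 10524. The largest were CG31741 (5.83), mwh (4.01) and Or67d (3.67) on the higher side and CG32834 (-3.42), ND-B8 (-2.71) and CG14441 (-2.46) on the lower. With signals floored at their 20th percentile these became 2.35, 3.18 and 0.95, and -2.37, -2.02 and -1.82. A second dim probe set of mwh gave 0.81 (adjusted p = 0.763). CG31741 fell by 4.1 in larvae, from 182 to 708 (median 317) to 11 to 76 (median 17), and its adult signals were 15 to 224. CG31741 passed in all 6 leave-one-out fits. At such low signals a small difference in signal is a large difference on the log2 scale.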

How the data were processed

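The deposited table held 1 linear intensity for each probe set on each array, computed by the authors. Their methods name MBEI in dChip and RMA, but no source used here says which produced the table. The trimmed mean was 2500.1 on every array, so the arrays already shared a scale, which was kept. Group, population and array number came from the sample labels. Median signals of the arrays were 401.6 to 685.2. The labels do not say whether the 2 arrays of a population came from separate cultures, so p-values measure the spread between these samples, which may in part be technical. The number of arrays and populations limits the precision.

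After 183 control probe sets were left out, 18769 were set to at least 1, taken as log2 and fitted with limma 3.58.1 in R 4.3.3 over all 24 arrays and 4 groups, with the population as a random block (estimated correlation 0.0425). Contrasts gave the selection effect within each stage and their difference, with Benjamini-Hochberg adjustment over all 18769 within each contrast. Bright probe sets had a mean log2 signal of at least 9.14 in adults and 9.13 in larvae (signals of 563 and 560).

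Names came from the platform annotation, with 13646 probe sets of 1 symbol, 402 of several and 4721 not listed. The brightest probe set stood for a gene. Members, gene lists and tests were chosen with earlier results of these data known. Named genes were, among bright called genes, the 12 largest in each direction whose selected and control populations did not overlap, those with opposite effects that both passed, up to 4 per list, 6 genes listed for their bearing on the study's experiments in flies (DptB, AttD, CecB, Gpdh1, Tmem214 and UGP, not all of which the study is known to have manipulated), and the 3 largest dim ones in each direction. Markers of other tissues come from fixed lists, and other genes named are said to have been chosen after their values were seen. The model was also run on simulated data. The noise there was independent between arrays, so that run does not bear on the dependence of arrays within a population. Alternatives changed the scaling, block, floor, brightness, test and samples. Tables and plots were made with Python 3.11.15, pandas 2.3.3, numpy 2.4.6 and matplotlib 3.10.9.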

Additional observations from a re-analysis of the deposited data

Results flagged for a closer look

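Selection effects that differed between adults and larvae by a test of the difference itself were counted for 369 of all probe sets and for 275 of those bright in both stages. Among named genes whose effects passed in both stages with opposite signs, the stage differences were 1.26 for mav, 1.15 for MCTS1, -1.14 for Jabba and -0.92 for EbpIII.

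In 7 of 224 groups of 6 arrays, over 56 bright called genes, 1 array lay far from the others of its group, by Dixon's ratio of its gap to the group's range. Chance gives about 1 such group in 20. In selected adults the second array of H2 was lowest for Cyp6d2 (636, others 2008 to 3606, ratio 0.663) and for Arc1 (25652, ratio 0.662). The second adult array of H3 was highest for EbpIII (ratio 0.738). In control adults the second array of C2 was lowest for Mur29B (599, others 1422 to 2171, ratio 0.671) and for CG8093 (1114, others 2053 to 2832, ratio 0.655), and the first array of C2 was highest for ND-13B (ratio 0.673). In control larvae the first array of C3 was lowest for Mur29B (ratio 0.666).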

How the results depend on the processing

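None of the 56 bright called genes named by the rule changed the sign of its stage difference under any alternative run. Uncalled genes named after their values were seen did: median centring gave -0.13 for Drs and -0.16 for bmm, and also turned hep (-0.15), while quantile normalization gave 0.06 for bsk, -0.03 for hep and 0.03 for Lsd-2. Counts of called probe sets did move. With the population within a stage as a random block, 108 of all and 87 of the bright probe sets passed, and with no block 301 and 223, so the count depends on how the arrays of a population are blocked. With the population as a fixed block 388 and 282 passed, and with the population number as a fixed block 327 and 243. Same-numbered control and selected populations were not treated as paired in the main fit, since the labels give them only a shared number. Their mean correlation of deviations was 0.0398 (-0.417 to 0.426), while arrays of 1 population and stage gave 0.141 (-0.550 to 0.547). With ranges this wide the correlations cannot show whether such populations were handled together. With 1 mean per population and stage, and with 1 adult minus larva difference per population, none passed in limma (2025 and 1850 of all at an unadjusted p under 0.05). The first arrays alone gave 3 calls in all and 0 among bright ones, and the second arrays alone 0 of either (limma, 546 and 768 bright at an unadjusted p under 0.05). A fold over 1.5 with a Bonferroni adjusted p under 1e-04 left 1 of all and 1 of the bright, raw.

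A floor at the 20th percentile gave 693 and 514 calls, a floor at 64 gave 619 and 455, and eBayes with a trend and robust settings gave 669 and 544. When bright probe sets alone were tested 962 passed, and with brightness at the 75th percentile 146 did. Leaving out 1 population in both stages gave 53 (without C3) to 373 (without H3) of all and 33 to 292 of the bright. Without the first larval array of C1 or the second adult array of C2, chosen after the data were seen, 252 and 303 of all and 185 and 232 of the bright passed.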
